A study of Mus musculus with 20 samples.

Results

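Mpo, Elane, Prtn3, Ctsg, Ms4a3 and Trem3 are 6 genes of the earliest granulocyte and monocyte stages, and they were followed by symbol through a table of 46078 Ensembl genes. All 6 were found there, and all 6 were among the 14176 genes that averaged 1 TPM or more over the libraries and were tested. TPM (transcripts per 1000000) is a level corrected for gene length, so it can be compared between genes. It is a share of a fixed total, so a difference between libraries also depends on the other RNAs in them. RNA came from LSK cells, the lineage-negative, Kit-positive, Sca1-positive bone marrow fraction that holds blood stem cells and multipotent progenitors. Donors were 3 to 4 month old C57Bl/6J animals, the total RNA of 2 of them was pooled for every library, and each of 5 groups had 4 such libraries. The control group (WT) was +/+;Vav-Cre. Idh1R132H was Idh1LSL-R132H/+;Vav-Cre, Idh2R140Q was Idh2LSL-R140Q/+;Vav-Cre and Idh2R172K was Idh2LSL-R172K/+;Vav-Cre, so WT and the 3 Idh groups all carried the Vav-Cre recombinase, which acts in blood-forming cells. The last group was Tet2-/-, whose label names no Cre and whose deleted exons are not stated, so the loss of Tet2 and any difference in Cre cannot be told apart.

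Azurophil or primary granules are the first granules that a granulocyte makes, at the promyelocyte stage, and their RNAs are already present in progenitors primed towards granulocytes and monocytes. Mpo encodes myeloperoxidase, the haem enzyme that makes hypochlorous acid. Elane, Prtn3 and Ctsg encode the serine proteases neutrophil elastase, proteinase 3 and cathepsin G, which are made as inactive precursors, trimmed by cathepsin C and stored on the proteoglycan serglycin. Ms4a3 encodes a membrane-spanning protein that marks granulocyte-monocyte progenitors, and Trem3 encodes an immunoglobulin-family receptor of myeloid cells that signals through the adaptor Tyrobp. In bulk RNA from sorted cells, fewer cells of a type and less RNA per cell cannot be told apart.

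The genes lie at 5 places in the genome (GENCODE M21 gene spans on mm10). Mpo (ENSMUSG00000009350) spans chr11:87793581-87804413. Elane (ENSMUSG00000020125) at chr10:79886247-79888215 and Prtn3 (ENSMUSG00000057729) at chr10:79874476-79883174 are neighbours on the same strand, with 3072 bases between them. Ctsg (ENSMUSG00000040314) is at chr14:56099881-56102574, Ms4a3 (ENSMUSG00000024681) at chr19:11629496-11640851 and Trem3 (ENSMUSG00000041754) at chr17:48247777-48258841. Within the annotated span of Prtn3 lies part of Plppr3 on the opposite strand, and an unnamed antisense gene model overlaps Mpo. The strand setting of the counting is not given in the sources used here, so reads of such pairs cannot be told apart. Plppr3 was at 175 TPM (SD 46.3, n = 4) in WT and 218 TPM (SD 61.2, n = 4) in Idh2R172K, and the antisense model at Mpo was at 1.71 TPM in WT.

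Correlation over the libraries did not set the 4 granule enzymes apart from Ms4a3 and Trem3. Pearson's r was 0.684 (Prtn3 with Ctsg) to 0.933 (Elane with Ctsg) among the 4. For the 4 with Ms4a3 or Trem3 it was 0.692 (Prtn3 with Trem3) to 0.968 (Ctsg with Trem3). Of the 5 promoter windows found, those of the 4 granule enzymes are shown and that of Ms4a3 is not. Each printed window is the 250 bases before the RefSeq start of the gene (GRCm38.p6), written 5′ to 3′ on the strand of the gene. For Mpo, Elane and Prtn3 the RefSeq start is not the start of the GENCODE span given above. The Mpo and Elane windows overlap the start of their spans, and the Prtn3 window lies inside its span. Positions below are counted from the RefSeq start. Every GAGGAA, the core of a PU.1-type ETS site, is in capitals. The windows are chr11:87793534-87793783 on the plus strand for Mpo, chr10:79886062-79886311 on the plus strand for Elane, chr10:79879417-79879666 on the plus strand for Prtn3 and chr14:56102575-56102824 on the minus strand for Ctsg.
Mpo: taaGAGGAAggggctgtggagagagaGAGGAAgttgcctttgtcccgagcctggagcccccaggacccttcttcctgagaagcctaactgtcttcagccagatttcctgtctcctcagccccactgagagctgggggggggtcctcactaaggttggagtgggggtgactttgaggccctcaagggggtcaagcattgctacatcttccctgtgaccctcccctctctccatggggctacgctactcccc
Elane: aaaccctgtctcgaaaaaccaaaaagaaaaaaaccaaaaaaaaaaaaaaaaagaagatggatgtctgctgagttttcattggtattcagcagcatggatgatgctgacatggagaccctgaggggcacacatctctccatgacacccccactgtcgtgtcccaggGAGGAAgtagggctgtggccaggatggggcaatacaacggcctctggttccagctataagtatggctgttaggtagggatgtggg
Prtn3: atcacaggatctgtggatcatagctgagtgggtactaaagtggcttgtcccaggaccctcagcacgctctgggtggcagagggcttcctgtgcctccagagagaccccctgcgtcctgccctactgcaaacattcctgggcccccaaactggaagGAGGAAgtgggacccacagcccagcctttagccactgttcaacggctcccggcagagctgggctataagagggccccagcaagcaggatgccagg
Ctsg: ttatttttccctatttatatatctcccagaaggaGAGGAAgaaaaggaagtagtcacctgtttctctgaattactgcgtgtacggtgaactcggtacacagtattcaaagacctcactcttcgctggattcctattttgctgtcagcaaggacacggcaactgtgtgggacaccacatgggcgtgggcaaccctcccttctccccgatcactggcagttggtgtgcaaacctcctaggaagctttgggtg
GAGGAA began 85 bases before the start of Elane and 95 before that of Prtn3, 216 before that of Ctsg, and at 224 and 247 before that of Mpo. Read on both strands, GAGGAA was in 23.3% of 32817 RefSeq promoter windows of this length, and the window of Ms4a3 had none. The MYB core AACNG matched 1 time in Mpo, 2 times in Elane and 3 times each in Prtn3 and Ctsg, and it was in 74.2% of all windows. The RUNX core TGTGGT (14.0% of windows) matched 1 time, in Ctsg, and the C/EBP pattern TTNNGNAA (36.8%) matched 1 time, in Ms4a3. These are matches of letters, not shown binding sites. The RefSeq table matched 5 of the 6 genes, all but Trem3.

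The granule enzymes were among the most abundant RNAs of these LSK libraries. By mean TPM over the 20 libraries, Mpo ranked 15, Elane 55, Ctsg 117 and Prtn3 118 of all genes in the table. Ms4a3 ranked 1845 and Trem3 ranked 7237. Together the 6 genes took 0.715% of TPM (SD 0.133, n = 4) in WT, 0.845% (SD 0.158, n = 4) in Idh1R132H, 0.639% (SD 0.238, n = 4) in Idh2R140Q, 0.392% (SD 0.0576, n = 4) in Idh2R172K and 0.51% (SD 0.0649, n = 4) in Tet2-/-.

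Libraries held 35.1 to 45.0 M assigned reads (M, 1000000), as rebuilt from the TPM steps. Kit and Ly6a, which encodes Sca1, were present in every library. Kit was at 97.9 TPM in Tet2-/- replicate 2 against 334 to 456 TPM in the other Tet2-/- libraries. Idh2R172K libraries held 541 to 636 TPM of Kit, 564 to 597 of Cd34 and 135 to 190 of Flt3. In WT these were at 335 to 427, 463 to 529 and 219 to 346 TPM. Cd48, Procr and Slamf1 overlapped between Idh2R172K and WT. Ly6a was at 115 to 144 TPM in Idh2R172K, 149 to 185 TPM in WT and 271 to 350 TPM in Tet2-/-. The part of these sort gene differences in the levels of the 6 genes was not tested. Idh2 was at 887 to 1020 TPM in Idh2R172K and 470.0 to 647 TPM in WT, Idh1 at 83.3 to 122 TPM in Idh1R132H and 74.3 to 102 TPM in WT, and Tet2 at 5.74 to 12.1 TPM in Tet2-/- and 6.67 to 9.23 TPM in WT. A level summed over a gene does not check a point mutation or the deletion of unstated exons. An rRNA-like gene model took 7.55 to 20.0% of TPM, with the number 4 libraries of WT and the Idh groups at 7.55 to 8.13% and Tet2-/- replicate 2 at 20.0%. Mature neutrophil markers were low next to the early genes: of 19 listed, Stfa2 was at 0 in all 20 libraries, Ly6g was at 0 in 8 and never above 0.789 TPM, and the summed TPM of the list was 94.7 to 174 in WT, 154 to 230 in Idh1R132H, 130 to 493 in Idh2R140Q, 158 to 216 in Idh2R172K and 109 to 202 in Tet2-/-.

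**Figure D1:**
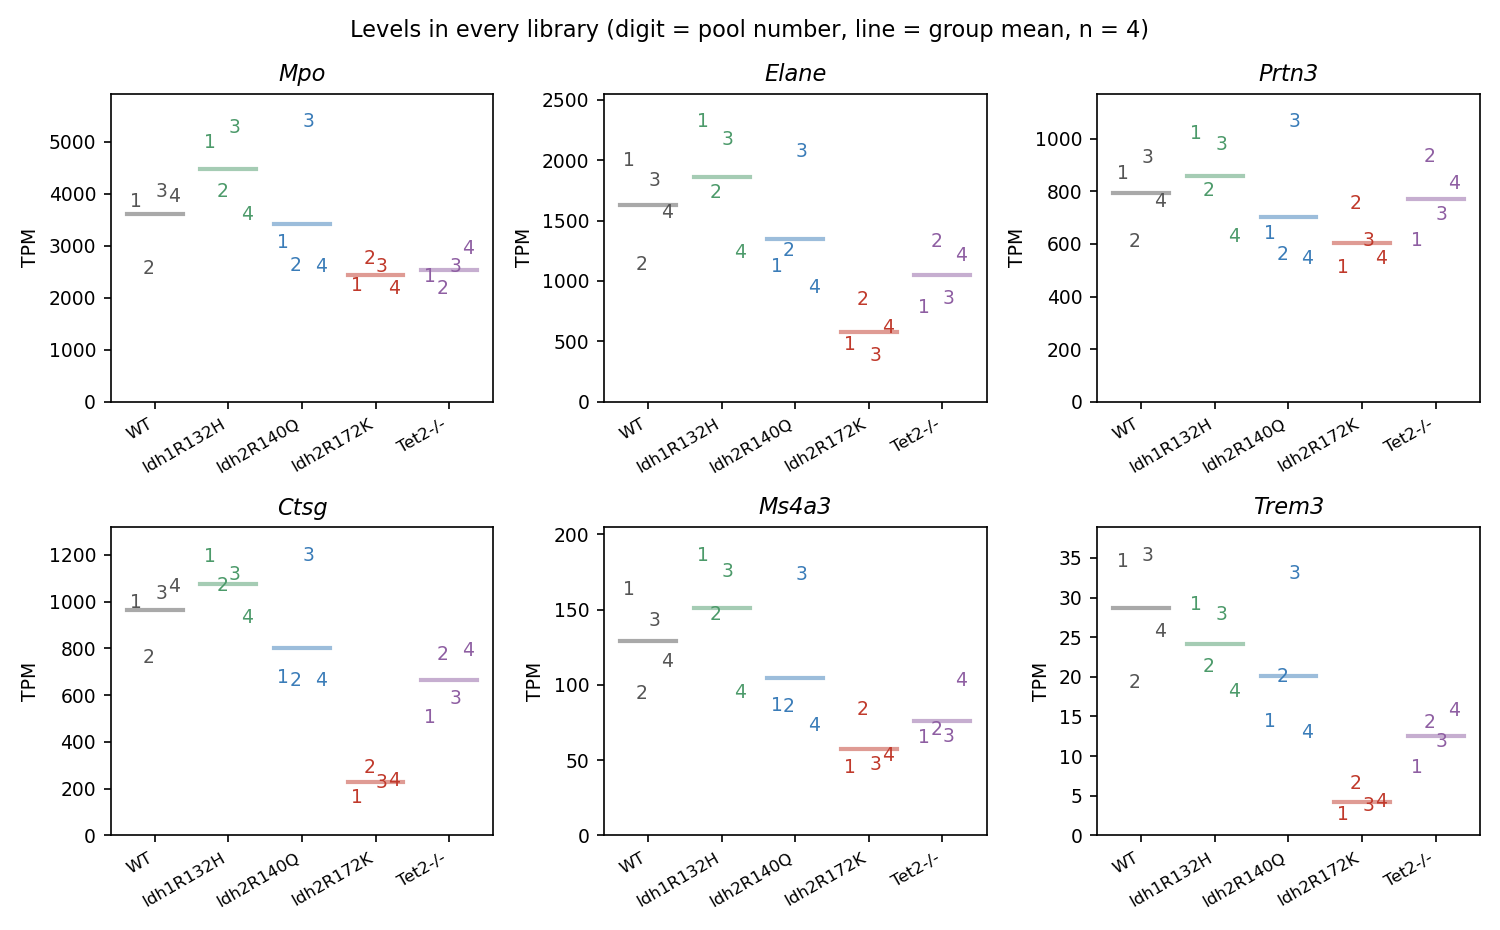
TPM of each gene (vertical axis, from 0) in the 20 libraries of 5 groups, with each library drawn as its pool number and the group mean as a line (n = 4). Ctsg in Idh2R172K lies between 161 and 292 TPM and every WT library at 762 or above, while the Prtn3 values of these groups overlap.

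The comparison of Idh2R172K with WT asks what this mutant mitochondrial enzyme does to early myeloid RNA in LSK cells. Of the 6 genes, 4 were lower in Idh2R172K: Elane, Ctsg, Ms4a3 and Trem3, by 2.26 to 5.68-fold on the TPM + 1 scale of the fit. Mpo and Prtn3 were not called. Differences are log2 differences of log2(TPM + 1) with the standard error (SE) of a limma fit of all 5 groups, and a gene is called at a Benjamini-Hochberg adjusted p under 0.05 over 14176 genes. Of all genes tested, 7.33% were called lower and 8.03% higher. The median difference was -1.35 over the 6 genes and 0.11 over all tested genes.

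Mpo was at 3860, 2573, 4042 and 3956 TPM in the WT libraries and at 2243, 2755, 2600 and 2179 TPM in those of Idh2R172K. WT replicate 2 lay within the Idh2R172K range and the other WT libraries above it. The log2 difference was -0.55 ± 0.20 (SE; limma adjusted p = 0.0759). It was called without WT replicate 2 (-0.70, limma adjusted p = 0.0283), when only these 2 groups were fitted (adjusted p = 0.0447), under library weights (adjusted p = 0.0426) and with the replicate number as a block (-0.55, adjusted p = 0.0339).

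Elane was at 1995, 1135, 1828 and 1563 TPM in WT and at 475, 850, 386 and 614 TPM in Idh2R172K. The lowest WT library stood above the highest mutant library. The log2 difference was -1.52 ± 0.28 (SE; limma adjusted p = 0.000771), which puts the level on the TPM + 1 scale at 34.9% of that in WT. Prtn3, the neighbouring gene of the same protease family, was at 867, 609, 930 and 760 TPM in WT and at 509, 755, 612 and 543 TPM in Idh2R172K. Its groups overlapped, and the log2 difference of -0.39 ± 0.21 was not called (SE; limma adjusted p = 0.239; 95% interval -0.83 to 0.05).

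Ctsg was at 997, 762, 1035 and 1065 TPM in WT and at 161, 292, 228 and 237 TPM in Idh2R172K. All mutant libraries lay far below all WT libraries. The log2 difference was -2.09 ± 0.20 (SE; limma adjusted p = 7.57e-07), a level at 23.6% of WT on the TPM + 1 scale.

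Ms4a3 was at 164, 94.5, 143 and 116 TPM in WT and at 45.1, 83.5, 47.2 and 53.0 TPM in Idh2R172K. The groups did not overlap, though Idh2R172K replicate 2 came close to WT replicate 2. The log2 difference was -1.17 ± 0.27 (SE; limma adjusted p = 0.00599). Trem3 was at 34.6, 19.3, 35.4 and 25.7 TPM in WT and at 2.64, 6.52, 3.71 and 4.22 TPM in Idh2R172K, where it rested on 36 to 79 rebuilt reads a library. It had the largest difference of the 6, -2.51 ± 0.28 (SE; limma adjusted p = 4.39e-06), with no overlap and a level at 17.6% of WT on the TPM + 1 scale.

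The 4 genes whose Idh2R172K libraries all lay below all WT libraries were the same 4 that were called, where 9.83% of all tested genes had that pattern. Their calls held in each of the 11 alternative fits and without any single library of these groups. Marker sums of other myeloid cells went different ways. Beside the marker counts that follow, 7.33% of all tested genes were called lower and 8.03% higher in Idh2R172K. In Idh2R172K the summed eosinophil markers were 12.3 to 22.6 TPM against 61.9 to 281 TPM in WT (4 of 7 tested markers called lower), and the monocyte and macrophage markers 113 to 129 against 167 to 198 TPM (2 of 12 called lower, 1 to 5 over the alternatives). The basophil and mast sums overlapped, at 385 to 466 TPM in Idh2R172K and 317 to 416 TPM in WT, with 3 of 6 called lower (Prss34, Ms4a2 and Fcer1a) and Cpa3 called higher. The mature neutrophil sums overlapped between the groups, with 2 of 13 tested markers called higher and 0 lower. These were the leukotriene receptor gene Ltb4r1 (27.2 to 56.6 TPM, limma adjusted p = 3.48e-06) and the integrin gene Itgam (28.0 to 49.9 TPM, 0.0479), whose call ended without any 1 of 7 of the 8 libraries. The part of these cells in the differences of the 6 genes was not tested.

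**Figure D2:**
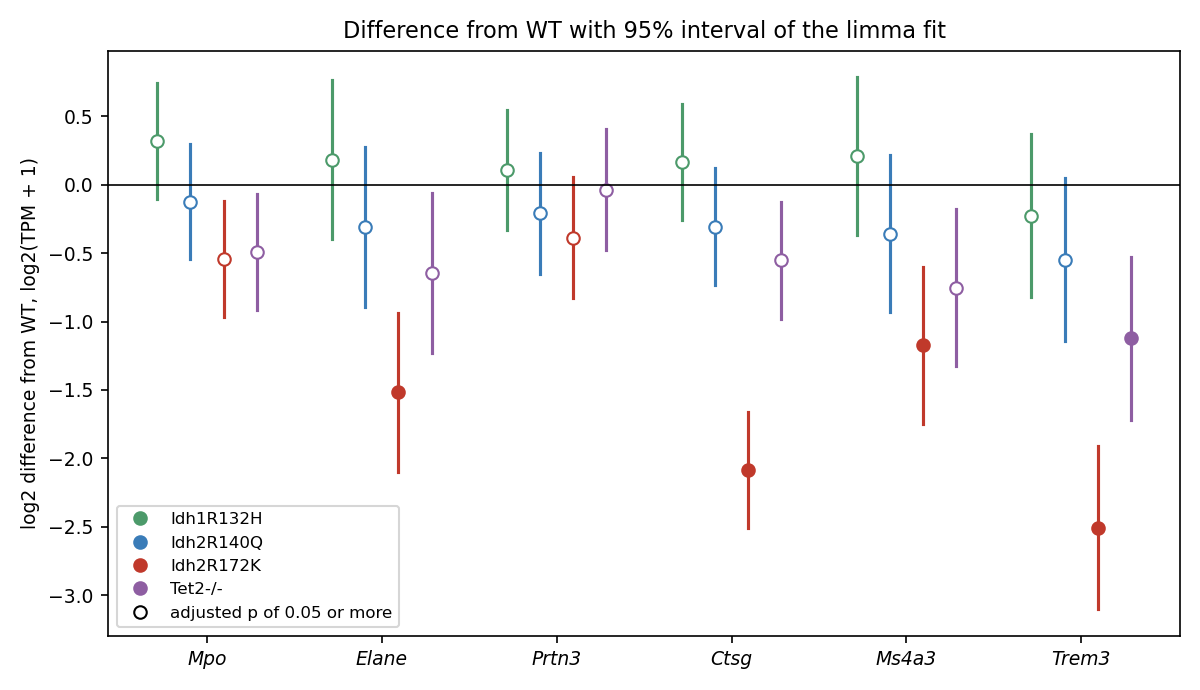
Difference from WT on the log2(TPM + 1) scale (vertical axis) for each gene and mutant group, with the 95% interval of the limma fit; filled points passed an adjusted p of 0.05 and open points did not. In Idh2R172K Elane, Ctsg, Ms4a3 and Trem3 are filled, from -1.17 to -2.51, and in Tet2-/- Trem3 alone is filled, at -1.12.

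In Tet2-/- cells 1 of the 6 genes was lower than in WT, the receptor gene Trem3. All 6 differences were below 0, from -0.04 for Prtn3 to -1.12 for Trem3, with a median of -0.60 against 0.02 over all tested genes. Of all genes tested, 2.02% were called lower and 5.02% higher, and the mutant libraries lay wholly below WT for 1 of the 6 and for 4.51% of all genes. The WT libraries are the same as in the comparison above.

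Trem3 was at 8.50, 14.3, 11.9 and 15.7 TPM in Tet2-/-, below the lowest WT library at 19.3 TPM. The log2 difference was -1.12 ± 0.28 (SE; limma adjusted p = 0.0261). The call ended without WT replicate 1 (limma adjusted p = 0.0745), without WT replicate 3 (0.0907) and when only these 2 groups were fitted (0.0817).

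Mpo was at 2411, 2184, 2598 and 2946 TPM in Tet2-/-, a range that holds WT replicate 2 and no other WT library. Its log2 difference was -0.49 ± 0.20 (SE; limma adjusted p = 0.128). Elane was at 784, 1326, 857 and 1215 TPM, and Ctsg at 504, 775, 586 and 789 TPM. Each of these proteases reached WT replicate 2 in at least 1 Tet2-/- library, and their log2 differences were -0.64 ± 0.28 and -0.55 ± 0.20 (SE; limma adjusted p = 0.15 and 0.0958). Prtn3 was at 614, 933, 712 and 830 TPM, spread over the same range as WT, with a log2 difference of -0.04 ± 0.21 (SE; limma adjusted p = 0.928; 95% interval -0.48 to 0.40). Ms4a3 was at 64.8, 70.6, 65.7 and 103 TPM, and only replicate 4 reached into the WT range. Its log2 difference was -0.75 ± 0.27 (SE; limma adjusted p = 0.0933).

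With library weights estimated by limma, 5 of the 6 genes were called lower in Tet2-/- and Prtn3 was not. Without the number 4 libraries and Tet2-/- replicate 2, the count was 2, Trem3 and Ms4a3. Summed monocyte and macrophage markers were 225 to 246 TPM in Tet2-/- and 167 to 198 TPM in WT, while the Idh2R172K sum was below WT. The called genes were not the same. In Tet2-/- 2 of 12 were called higher, C1qb (22.7 to 49.5 TPM) and C1qc (11.6 to 23.7 TPM), and 4 of 12 had differences below 0. That count was 0 to 5 over the alternatives, and 5.02% of all genes were called higher. In Idh2R172K Cd68 (70.2 to 31.3 TPM) and Cd163 (22.6 to 14.2 TPM) were called lower. The part of these markers in the result was not tested.

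None of the 6 genes was called in Idh1R132H or in Idh2R140Q against WT. In limma, 0.00705% of all genes were called in Idh1R132H and 0.0% in Idh2R140Q, and the counts at an unadjusted p under 0.05 were 229 and 407 genes, none of them among the 6. No alternative fit called any of the 6 either.

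In Idh1R132H Mpo was at 4989, 4042, 5281 and 3608 TPM, with replicates 1 and 3 above the WT range and replicate 2 at its top. The log2 difference was 0.32 ± 0.20 (SE; limma adjusted p = 1.0; 95% interval -0.10 to 0.74). Elane was at 2319, 1730, 2171 and 1236 TPM, Prtn3 at 1021, 804, 977 and 627 TPM, and Ctsg at 1191, 1069, 1117 and 932 TPM. In all 3 protease genes the mutant and WT libraries overlapped, with log2 differences of 0.11 to 0.18. Ms4a3 was at 186, 147, 176 and 95.1 TPM (0.21 ± 0.27, SE). Trem3 was at 29.1, 21.3, 27.9 and 18.2 TPM and was the only one of the 6 with a difference below 0 (-0.23 ± 0.28, SE; 95% interval -0.82 to 0.37).

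In Idh2R140Q all 6 differences from WT were below 0, with a median of -0.31, and replicate 3 stood apart. Mpo was at 3071, 2619, 5392 and 2599 TPM, Elane at 1121, 1249, 2068 and 949 TPM, and Prtn3 at 641, 560, 1065 and 546 TPM. Ctsg was at 675, 665, 1199 and 662 TPM, Ms4a3 at 86.4, 85.3, 173 and 73.2 TPM, and Trem3 at 14.3, 20.1, 33.0 and 12.99 TPM. Replicate 3 was the highest library for each of the 6, while the other 3 lay below the lowest WT library for Ctsg and Ms4a3. Mature neutrophil RNA was also highest in that library: the marker sum was 493 TPM against 130, 139 and 133 TPM in the others, with S100a8 at 131 TPM against 22.2 to 35.5 TPM and Camp at 19.2 TPM against 2.05 to 3.51 TPM. Its part in the levels of the 6 genes was not tested. Without replicate 3, the differences of Ctsg and Trem3 from WT were -0.52 and -0.81, the smallest adjusted p among the 6 was 0.885 and none was called.

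The 2 alleles of Idh2 differed in 3 of the 6 genes. Elane, Ctsg and Trem3 were lower in Idh2R172K than in Idh2R140Q by -1.21 ± 0.28, -1.78 ± 0.20 and -1.96 ± 0.28 (log2 ± SE; limma adjusted p = 0.00652, 5.87e-06 and 8.65e-05), where 6.74% of all genes were called lower. All Idh2R172K libraries were below all Idh2R140Q libraries for these 3, and the calls held without any single library, Idh2R140Q replicate 3 included. Ms4a3 missed the threshold (-0.82 ± 0.27, SE; limma adjusted p = 0.0673) and passed it without Idh2R140Q replicate 4 (0.0447) or Idh2R172K replicate 2 (0.0289). For Mpo the 95% interval of the difference ran from -0.84 to 0.00 and for Prtn3 from -0.62 to 0.26.

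Against Idh1R132H, 5 of the 6 genes were lower in Idh2R172K, all but Prtn3, where 7.32% of all genes were called lower. The called differences ran from -0.86 ± 0.20 for Mpo to -2.28 ± 0.28 for Trem3 (log2 ± SE; limma adjusted p = 0.00632 and 1.41e-05), and no single library ended them. Prtn3 differed by -0.49 ± 0.21 (SE; limma adjusted p = 0.139). Between Idh2R140Q and Idh1R132H 0 of the 6 were called, with 2 at an unadjusted p under 0.05, against 0.00705% called and 274 genes at an unadjusted p under 0.05 over all genes in limma. The 0 held in every alternative fit.

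Tet2-/- cells held more Elane, Ctsg and Trem3 RNA than Idh2R172K cells, by 0.87 ± 0.28, 1.53 ± 0.20 and 1.38 ± 0.28 (log2 ± SE; limma adjusted p = 0.0284, 3.13e-05 and 0.00205), where 11.9% of all genes were called higher. For Ctsg and Trem3 the groups did not overlap and no single library ended the call. The Elane groups overlapped, and its call ended without Idh2R172K replicate 1 or 3 or Tet2-/- replicate 2 or 4 (limma adjusted p = 0.0652 to 0.0874). The Elane call also ended with no filter (limma adjusted p = 0.0582) and in the fit of the 2 groups (0.068). Without the number 4 libraries and Tet2-/- replicate 2 the Elane difference was 0.606 (limma adjusted p = 0.217). Mpo was at 2184 to 2946 TPM in Tet2-/- and 2179 to 2755 TPM in Idh2R172K, with a 95% interval of the log2 difference from -0.37 to 0.47. Against Idh2R140Q 0 of the 6 were called in Tet2-/- and 0 were at an unadjusted p under 0.05, while limma called 9.54% of all genes and put 4272 genes at an unadjusted p under 0.05, and the 0 held in every alternative fit.

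Against Idh1R132H, Tet2-/- cells were lower in Mpo, Ctsg, Ms4a3 and Trem3, by -0.81, -0.72, -0.96 and -0.89 (limma adjusted p = 0.017, 0.0291, 0.0298 and 0.0445), where 6.67% of all genes were called lower. This count was not stable. Leaving out any library but Idh1R132H replicate 4 ended at least 1 of the calls, and without Idh1R132H replicate 3 the count was 0.

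The order of the 3 protease genes differed between groups. In each WT, Idh1R132H and Idh2R140Q library Elane was the highest of the 3, Ctsg the second and Prtn3 the lowest. In each Tet2-/- library Prtn3 was above Ctsg. In Idh2R172K the ratio of Prtn3 to Ctsg was 2.29 to 3.16, against 0.714 to 0.898 in WT and 1.05 to 1.22 in Tet2-/-. The ratio of Elane to Prtn3 was 1.86 to 2.30 in WT, 1.20 to 1.46 in Tet2-/- and 0.631 to 1.13 in Idh2R172K, where 2 of 4 libraries had more Elane and 2 more Prtn3. Mpo exceeded Ctsg by 3.38 to 3.90 times in WT and by 9.20 to 13.9 times in Idh2R172K.

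**Figure D3:**
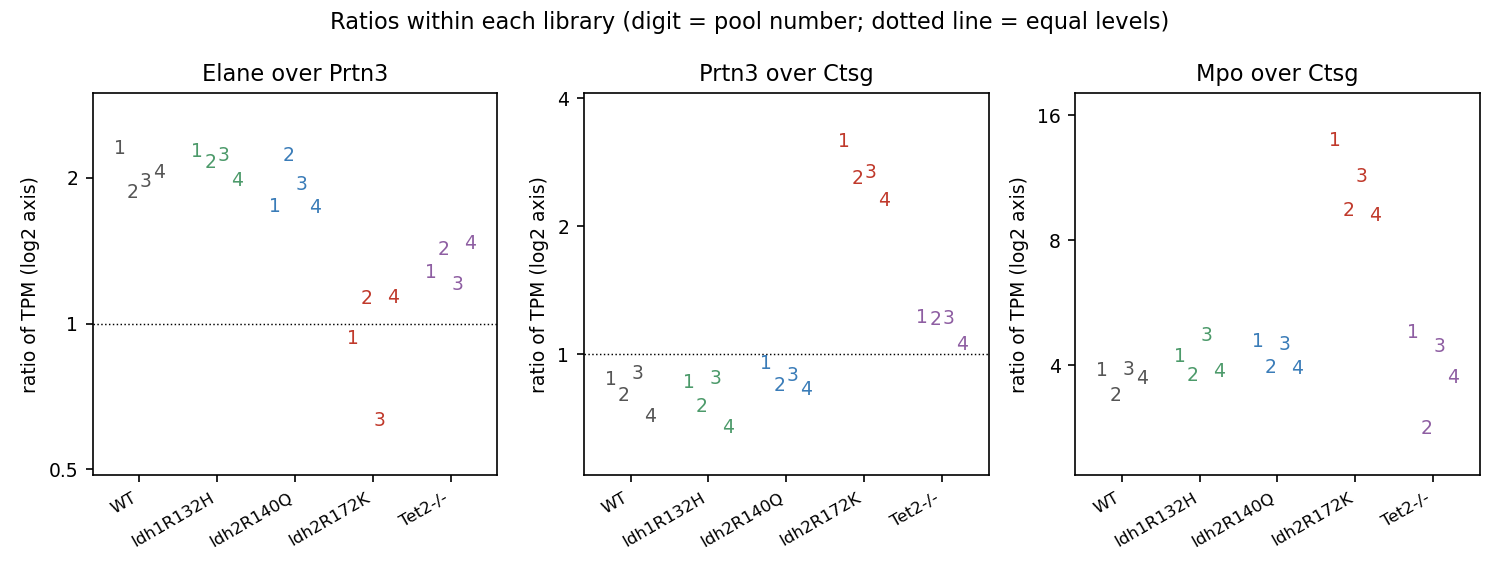
Ratio of TPM of Elane to Prtn3, Prtn3 to Ctsg and Mpo to Ctsg within each library (vertical axis, log2 scale), drawn as the pool number, with a dotted line at equal levels. The Prtn3 to Ctsg ratio lies below 1 in the 12 libraries of WT, Idh1R132H and Idh2R140Q and above 1 in the 8 of Idh2R172K and Tet2-/-.

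Ratios to Mpo ask whether the other 5 genes differed from WT by the same factor as Mpo. In Idh2R172K the log2 ratio to Mpo differed from WT by -0.97 for Elane, -1.54 for Ctsg and -2.24 for Trem3, with no overlap in 4 against 4 libraries (exact permutation test, 2-sided p = 0.0286, the smallest this design allows; adjusted p = 0.0952 over 20 ratios). For Ms4a3 it differed by -0.64 (exact permutation p = 0.0571) and for Prtn3 by 0.16 (exact permutation p = 0.143). The smallest p was also reached by Prtn3 in Tet2-/- (0.46), Ctsg in Idh2R140Q (-0.19) and Trem3 in Idh1R132H (-0.56), each with an adjusted p of 0.0952 in the exact permutation test. Of the 20 ratios, 6 had an unadjusted exact permutation p of 0.0286 and 0 passed the adjusted threshold. Full separation of 4 against 4 libraries gives no smaller p, so this 0 cannot tell whether a single ratio changed.

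Within groups the 6 genes often, but not always, shared their highest or lowest library. WT replicate 2 was the lowest WT library for 6 of 6 genes, 0.33 to 0.51 below the group mean on the log2 scale. Replicate 4 was the lowest for 6 of 6 in Idh1R132H and in Idh2R140Q. Idh2R140Q replicate 3 was the highest for 6 of 6, 0.63 to 0.81 above its group mean, and Idh2R172K replicate 2 for 6 of 6, 0.18 to 0.61 above. Other libraries split the genes. Tet2-/- replicate 2 was the lowest of its group for Mpo (-0.206 from the group mean) and the highest for Elane (0.379) and Prtn3 (0.29), and Idh2R172K replicate 3 was the lowest of its group for Elane (-0.525) with Mpo at 0.096. After the group means were removed, Pearson's r between pairs of the 6 genes over the 20 libraries ran from 0.676 (Mpo with Elane) to 0.913 (Elane with Trem3). With the group means kept, it ran from 0.684 (Prtn3 with Ctsg) to 0.968 (Ctsg with Trem3). These are descriptions, since genes of 1 library share its mice, its sort and its depth.

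**Figure D4:**
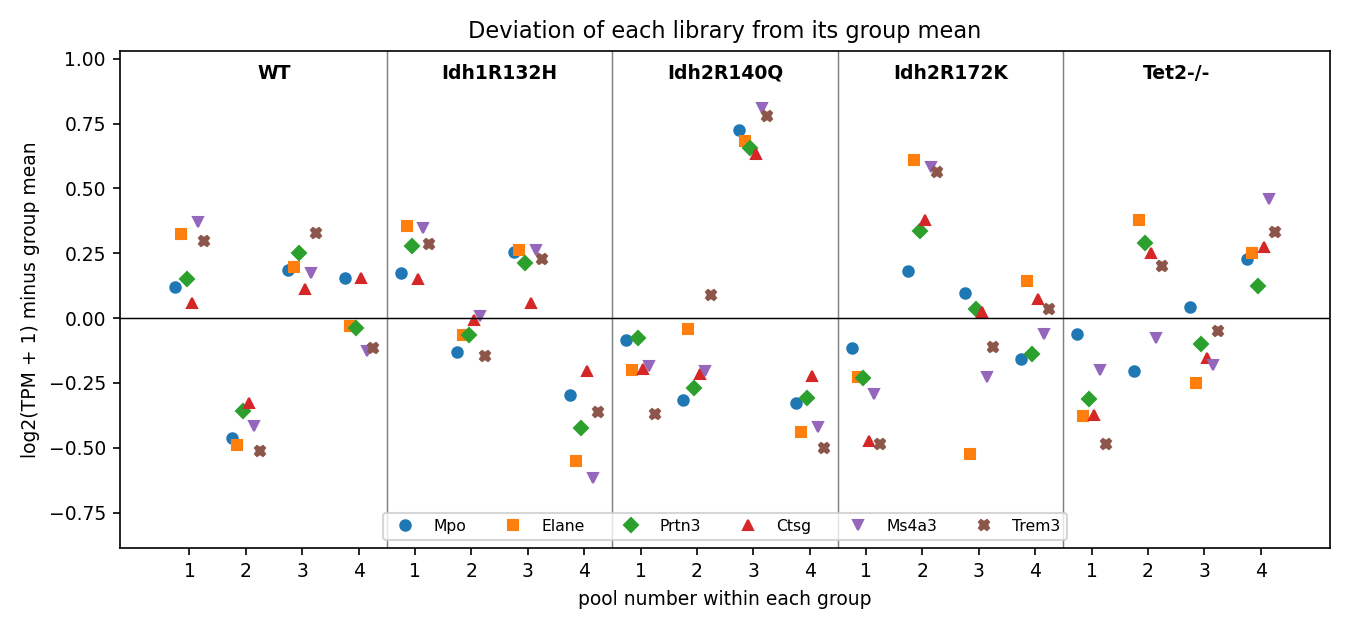
Deviation of each gene from its group mean on the log2(TPM + 1) scale (vertical axis) in the 20 libraries, by group and pool number, with 1 symbol a gene. All 6 symbols lie above 0 in Idh2R140Q replicate 3 and below 0 in WT replicate 2.

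The genes most like the mean of the 6 over the 20 libraries, among 9871 genes averaging 5 TPM or more, were Cldn15 and Fcgr3 (Pearson's r = 0.96 each), Cyp4f18 (0.942), Ly6c2 (0.934) and Anxa3 (0.919). With group means removed they were Ly6c2 (0.937), Hp (0.929), Fcgr3 (0.913) and Cldn15 (0.912). Fcgr3 encodes an Fc receptor used to sort granulocyte-monocyte progenitors, and Ly6c2 encodes a surface antigen of monocytes and their precursors. Mpo was closest to Tifab (0.932), Elane to Fcgr3 (0.954), Prtn3 to Tspo (0.899), Ctsg to Anxa3 (0.971), Ms4a3 to Fcgr3 (0.941) and Trem3 to Cyp4f18 (0.956). Prss57, which encodes another serine protease of neutrophil granules, was among the 5 closest to Ctsg (0.968).

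The list of genes that process, pack and inhibit granule proteases did not move as 1 block in Idh2R172K. This list also holds Prss57, itself a granule protease gene, as well as Lyz2 and Gfi1. Of 15 tested, 3 were called lower and 2 higher, where 7.33% of all genes were called lower and 8.03% higher. Their median difference was 0.12 against 0.11 over all genes. Prss57 fell from 77.4 TPM (SD 8.72, n = 4) in WT to 13.1 TPM (SD 2.61, n = 4), a log2 difference of -2.49 ± 0.15 (SE; limma adjusted p = 1.45e-09). Slpi, an inhibitor of elastase and cathepsin G, fell from 78.4 to 25.3 TPM (-1.58 ± 0.27, SE; limma adjusted p = 0.000481). Calr, a chaperone of the myeloperoxidase precursor, fell from 1230 to 962 TPM, a call lost without Idh2R172K replicate 4 (limma adjusted p = 0.0517). Cst7, which encodes cystatin F, an inhibitor of cathepsin C, rose from 264 TPM (SD 16.2, n = 4) to 504 TPM (SD 43.2, n = 4; 0.93 ± 0.10, SE; limma adjusted p = 4.24e-06). Cd63, a granule membrane protein gene, was called at 472 TPM in WT and 595 TPM in Idh2R172K (limma adjusted p = 0.0384), but the call ended with median-of-ratios scaling (0.358) and on leaving out any 1 of 5 libraries, WT replicates 3 and 4 and Idh2R172K replicates 1, 2 and 4 (0.0526 to 0.119). Ctsc, the activating protease itself, was at 69.2 TPM in WT and 78.3 TPM in Idh2R172K, the storage proteoglycan gene Srgn at 933 and 882 TPM, and the elastase inhibitor gene Serpinb1a at 531 and 529 TPM, and none of these was called.

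Of 15 myeloid transcription factors, 2 were called lower and 2 higher in Idh2R172K, with 1 to 2 lower and 1 to 7 higher over the alternatives. With 7.33% of all genes called lower and 8.03% higher, counts this small in 15 genes are near the background. Irf8, which directs monocyte and dendritic fates, fell from 118 TPM (SD 35.7, n = 4) to 46.9 TPM (SD 9.93, n = 4; -1.29 ± 0.19, SE; limma adjusted p = 0.000108). Cebpe, which drives later granule genes, was called at 5.15 TPM in WT and 2.58 TPM in Idh2R172K (limma adjusted p = 0.0488), a call that ended on leaving out any of WT replicates 1 and 4 and Idh2R172K replicates 1, 2 and 3 (0.072 to 0.136). Runx1 rose from 40.8 to 55.4 TPM (limma adjusted p = 0.0145), which ended without WT replicate 2 (0.054), and Rara rose from 12.0 to 16.8 TPM (0.0262), a call that 5 of the 8 libraries ended when left out. Cebpa, Myb and Spi1, which encodes PU.1, were not called. Cebpa was at 20.4 TPM in WT and 23.5 in Idh2R172K, Spi1 at 177 and 195, and Myb at 278 and 312 TPM. Gfi1 was at 4.57 to 9.27 TPM in WT and at 3.26, 10.5, 5.00 and 33.4 TPM in Idh2R172K, where replicate 4 stood apart and the range of the other 3 overlapped that of WT.

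Of 30 early granulocyte-monocyte progenitor genes tested, 14 were called lower and 2 higher in Idh2R172K, where 7.33% of all genes were called lower and 8.03% higher, with a median of -0.61 against 0.11 over all genes, and 12 to 17 were called lower over the alternatives. Padi4, which encodes an enzyme that citrullinates histones in neutrophils, fell from 50.1 TPM (SD 3.77, n = 4) to 1.27 TPM (SD 0.331, n = 4; limma adjusted p = 7.6e-12). Hk3, a hexokinase of myeloid cells, fell from 156 to 30.5 TPM, Fcer1g, the Fc receptor gamma chain, from 200.0 to 68.1 TPM, and Clec12a, a myeloid lectin receptor, from 69.6 to 26.0 TPM (limma adjusted p = 3.2e-08, 5.79e-07 and 7.57e-07). Cst7 and Csf2rb2, a receptor chain gene for interleukin 3, were the 2 called higher. Csf2rb2, named after its value was seen, was at 13.5 TPM in WT and 38.6 TPM in Idh2R172K. Tyrobp, the adaptor of Trem3, was at 441 and 384 TPM and was not called.

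**Figure D5:**
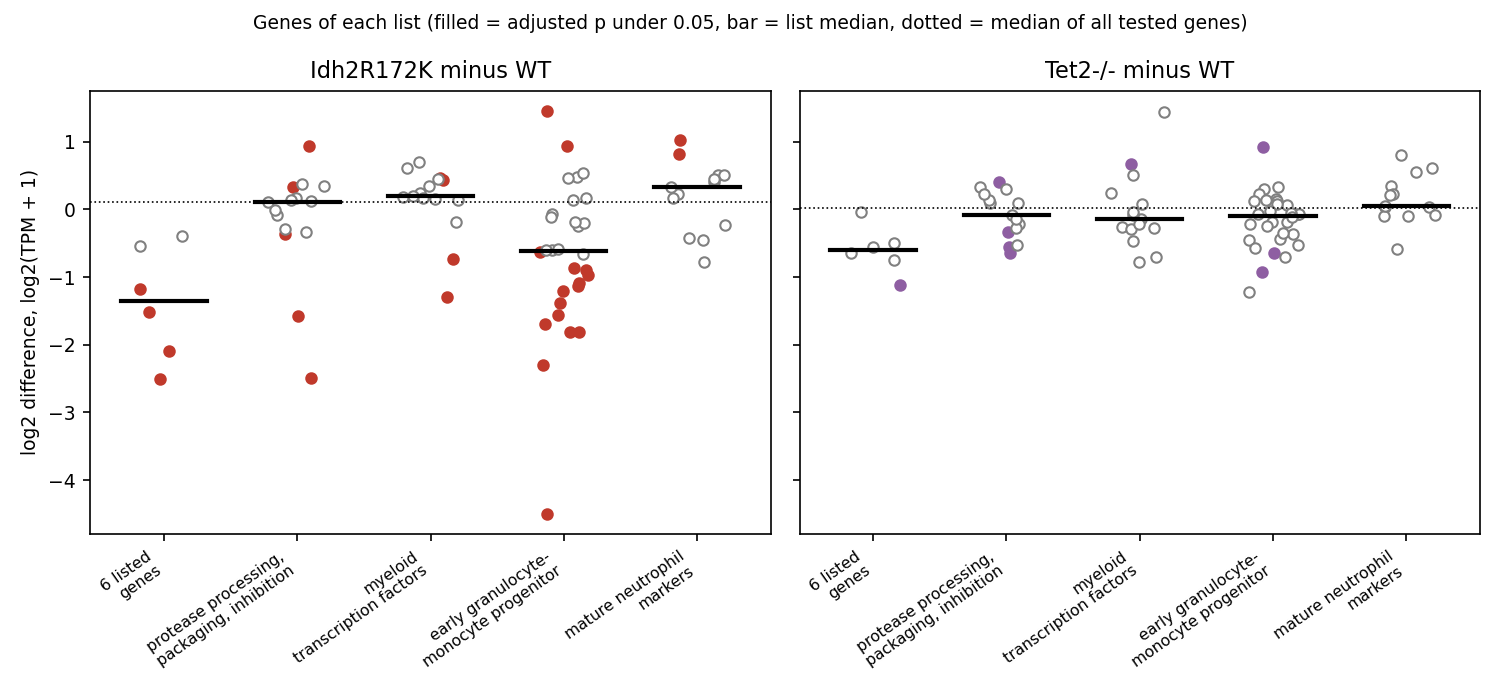
Log2 differences (vertical axis) of the genes of 5 lists in Idh2R172K and Tet2-/- minus WT, with filled points for an adjusted p under 0.05, a bar at each list's median and a dotted line at the median of all tested genes. In Idh2R172K the 6 genes have a median of -1.35 and the early granulocyte-monocyte progenitor genes -0.61.

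In Tet2-/-, the processing list had 1 gene called higher and 3 lower of 15, the transcription factors 1 higher and 0 lower of 15, and the early progenitor genes 1 higher and 2 lower of 30, where 5.02% of all genes were called higher and 2.02% lower. These counts were not stable. Over the alternatives the processing list had 0 to 5 called higher and 0 to 4 lower, the transcription factors 0 to 3 and 0 to 2, and the early progenitor genes 0 to 3 and 0 to 7. Hk3 fell from 156 to 81.6 TPM (-0.92 ± 0.17, SE; limma adjusted p = 0.00817) and Cd52, a small surface glycoprotein gene, rose from 192 to 374 TPM (0.92 ± 0.17, SE; limma adjusted p = 0.00664). Neither call was kept when these 2 groups were fitted by themselves (adjusted p = 0.08 and 0.0963). Canx, which encodes calnexin, another chaperone of the myeloperoxidase precursor, was called at 599 TPM in WT and 394 TPM in Tet2-/-, Prss57 at 77.4 and 52.6 TPM, Calr at 1230 and 990.0 TPM and the annexin gene Anxa3 at 37.5 and 23.4 TPM. Called higher were Cd63, at 472 and 620.0 TPM, and Id2, an inhibitor of DNA binding by other factors, at 37.3 and 60.3 TPM. These 6 calls (limma adjusted p = 0.0221 to 0.0448) each ended without WT replicate 3 (0.07 to 0.131). None of the genes of these lists was called in Idh1R132H or Idh2R140Q.

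Relatives and neighbours of the 6 genes differed gene by gene. Of 10 Trem and Ms4a relatives tested, 2 were called lower in Idh2R172K, where 7.33% of all genes were called lower. Ms4a2, the Fc receptor beta chain of basophils and mast cells and the gene next to Ms4a3 on chromosome 19, fell from 6.77 to 0.639 TPM (limma adjusted p = 5.65e-08), and Ms4a6b fell from 25.4 to 12.3 TPM (4.61e-05). In Tet2-/- 1 of the 10 was called higher, Treml4, where 5.02% of all genes were called higher. Treml4 was at 1.18 TPM in WT and 2.18 TPM in Tet2-/- (limma adjusted p = 0.0372), a call that ended without WT replicate 3 (0.119). Trem1, 852 bases from Trem3, was at 5.96 TPM in WT and 5.13 TPM in Idh2R172K and was not called. Mcpt8, the neighbour of Ctsg, was at 102 and 126 TPM, and Ptbp1, on the far side of Prtn3, at 333 and 298 TPM, and neither was called. Among haem peroxidases, Epx of eosinophils fell from 11.0 TPM (SD 7.79, n = 4) to 1.24 TPM (SD 1.45, n = 4; limma adjusted p = 0.00863), and Lpo, beside Mpo, was at 0.185 TPM in WT, too low to be tested.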

How the data were processed

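Total RNA of LSK cells was sequenced in 20 libraries. Per the submitters' processing notes reads were trimmed with Trim Galore, aligned to mm10 with STAR and counted with featureCounts. Versions, the annotation release and the strand setting are not given in the sources used here. The deposited values are TPM, 1 table whose libraries each sum to 1000000. The mutation and pool number in each column name gave its sample, and the Idh2R140Q columns carry a prefix naming Idh1 with 140Q. Symbols come from GENCODE M21, where 45229 of 46078 IDs were found. Depth was read from the TPM steps: 89.9 to 91.1% of values up to 30 reads were whole within 0.1 reads.

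The 6 genes were tested with limma 3.58.1 (R 4.3.3) on log2(TPM + 1), a pseudocount of 1, in 1 fit of 5 groups with an intensity trend, with Benjamini-Hochberg adjustment across the 14176 genes averaging 1 TPM or more. A log2 difference understates the change of low genes. Ratios to Mpo were tested by exact permutation with scipy 1.17.1. The p-values measure the spread between pools of 2 mice. Each mutant was compared with the same 4 WT libraries. The tests of 11 alternative fits and of fits without each library are given in the closing section.

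The 6 genes, the lists and the tests were chosen with earlier results of these data known. From each list the text names up to 4 called genes with the smallest p in Idh2R172K and up to 2 in each other mutant. It also names some of the genes with the highest Pearson's r with the 6, and some of their neighbours on the chromosome. Other genes named for their role were chosen after their values were seen. Marker lists for T and NK cells, B lineage, red cells, dendritic cells and stroma were also summed, and their sums stand in the closing section.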

Additional observations from a re-analysis of the deposited data

Results flagged for a closer look

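In 30 groups of 4 libraries (6 genes in 5 groups), 5 held a library far from the other 3, where the gap to the nearest library, as a share of the group's range, exceeded Dixon's 95% critical value. Chance flags about 1 in 20 such groups. The 30 are not independent, since the 6 genes share libraries. Idh2R140Q replicate 3 was the high library for Mpo at 5392 TPM (gap 0.831 of the range), Ctsg at 1199 TPM (0.976) and Ms4a3 at 173.2 TPM (0.868). WT replicate 2 was the low library for Mpo at 2573 TPM (0.876). Tet2-/- replicate 4 was the high library for Ms4a3 at 103.0 TPM (0.847).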

How the results depend on the processing

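The counts of called genes among the 6 stayed within 1.5 times under every alternative in 8 of 10 comparisons. In Tet2-/- against WT the count of 1 became 2 with quantile normalization, 0 in the fit of the 2 groups, 5 under library weights and 2 when the number 4 libraries and Tet2-/- replicate 2 were left out, and it was 0 to 1 when single libraries were left out. In Tet2-/- against Idh1R132H the count of 4 became 1 with no filter, 2 in the fit of the 2 groups and 0 to 5 without single libraries. With the replicate number as a block the count was 5 in Idh2R172K against WT, as Mpo was then called (limma adjusted p = 0.0339), and the block changed no other count. Same-numbered libraries had correlations of -0.197 to 0.538, with a median of 0.144 (0.427 for number 4) against -0.035 for different numbers. Of the same-numbered correlations 22 of 40 were over 0.1, against 18 of 120 for different numbers, and 14 of 20 libraries correlated best with their own number. This is a hint of shared structure from the data and not from the design. The labels tie no number to a shared batch, so the numbers were not taken as pairs, and the main fit leaves this structure out. Signs turned only for differences that were not called. Mpo was 0.037 in Idh2R140Q against WT and -0.012 in Tet2-/- against Idh2R172K, and Prtn3 was -0.135 in Tet2-/- against Idh2R140Q, all with the same libraries left out. Without single libraries Prtn3 was -0.013 to 0.249 in Idh1R132H against WT, -0.156 to 0.068 in Tet2-/- against WT and -0.288 to 0.042 in Idh2R172K against Idh2R140Q, Mpo was -0.024 to 0.12 in Tet2-/- against Idh2R172K, and the log2 ratio of Ctsg to Mpo in Tet2-/- against WT was -0.211 to 0.044. The cause of these changes was not tested. Median-of-ratios scaling moved the median of all genes in Idh2R172K against WT from 0.11 to 0.02. Mpo is itself among the 20 most abundant genes, and it was kept when TPM was rescaled without those genes. With 36 to 79 reads of Trem3 in a library of Idh2R172K, counting error alone is up to 16.7% of its level there.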

Other observations

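Markers of other blood cells, as summed TPM of each list, differed in both directions between Idh2R172K and WT. Of all tested genes, 7.33% were called lower and 8.03% higher in Idh2R172K. The dendritic and MHC class II sum was 380.0 to 488 TPM in Idh2R172K and 624 to 1040 TPM in WT, with 4 of 10 markers called lower and 1 higher. B lineage markers summed to 123.9, 42.15, 62.58 and 48.47 TPM in Idh2R172K replicates 1 to 4, against 94.0 to 110.0 TPM in WT. Only replicate 1 was above the WT range, and the other Idh2R172K libraries were below it. Of 7 tested, 3 were called higher (1 to 5 over the alternatives) and 1 lower. Red cell markers summed to 45.2 to 69.8 against 49.6 to 80.8 TPM, T and NK markers to 4.83 to 9.97 against 5.66 to 10.5 TPM, and stroma and endothelium markers to 45.8 to 58.4 against 48.3 to 90.2 TPM. In Tet2-/- red cell markers summed to 94.8 to 134 TPM, above the WT range. Of these, 5 of 8 were called higher and 1 lower, where 5.02% of all genes were called higher and 2.02% lower. The count called higher was 1 to 6 over the alternatives, and in the fit of the 2 groups it was 1, with 0 lower.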
